A study of Mus musculus with 2 samples.

Results

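Antisense noncoding RNAs are transcripts annotated on the strand opposite another gene. In the adrenal glands of 2 mice, 134 antisense genes reached a mean expected count of 50, of 3067 antisense genes in the annotation and 55536 genes in the gene tables. A gene was taken where at least 1 of its transcripts had the class antisense and none had the class protein_coding or lincRNA. The expected count is an estimate of the reads from a gene, and its mean over both libraries set the threshold, so the members were chosen by their expected counts, and their number and levels are a description and not a test. Of the 3067 genes, 1803 were listed at 0 in both libraries, 578 held at least 3 expected counts in each, and 136 passed the threshold, from which the imprinted RNAs Kcnq1ot1 and Airn were left out by name. Just inside the threshold stood Rab26os, with 47 and 53 expected counts in replicates 2 and 1, and Gm10069, with 45 and 55. Just outside it stood Gm28884, with 59 and 40 counts, and Hoxb3os, with 58 and 40.

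The samples were adrenal glands of adult female mice of the strain B6CASTF1/J, an F1 hybrid of C57BL/6J and a wild-derived CAST line, aged 8 to 10 months. Total RNA of 300 ng per library, with ERCC spike-in RNA added, was sequenced after preparation with a kit whose linked manual is for directional libraries. Replicate 2 is animal 3 and replicate 1 is animal 1, and both carry the same donor code, so the animal numbers are what sets them apart. Both libraries form 1 group with no treatment, and with 1 library on each side of any ratio no p-value was computed. The spread between them may be technical.

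Antisense RNAs can act on the gene they overlap, by transcription through it, by pairing with its RNA or by recruiting chromatin factors, and others act elsewhere in the cell or serve as hosts for small RNAs. Many start beside the promoter of a protein-coding gene and run away from it, because mammalian promoters often fire in both directions, and such RNAs are commonly short-lived in the nucleus. In the adrenal gland the tissue around them consists of the steroid-making cortex and the medulla, whose chromaffin cells descend from the same neural crest lineage as sympathetic neurons.

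The gene tables summed to 34235680 expected counts over genes in replicate 2 and 40362215 in replicate 1. The cortex markers of both libraries were high, with a median over 8 genes of 3228 TPM in replicate 2 and 2769 TPM in replicate 1, the 6 chromaffin markers had medians of 271 and 305 TPM, and the 3 kidney markers were listed at 0. The 3 liver markers were low and higher in replicate 2, with Alb at 18.7 and 5.56 TPM in replicates 2 and 1, Apoa1 at 1.62 and 0.410 TPM and Ttr at 1.34 and 0.660 TPM. All 6 adipocyte markers were lower in replicate 2, with a median log2 ratio of -1.06, and so were the 4 fibroblast markers, at -0.62. By less, all 6 chromaffin markers were lower too, at -0.23, and all 4 endothelial markers, at -0.13. The 8 cortex markers had a median of 0.01, with 4 below 0, and the 4 macrophage markers one of -0.02, with Cd163 at -1.85. A median of 9 nuclear noncoding RNAs, among them Malat1 and Neat1, was at 0.52 on the same scale. How these differences bear on the antisense RNAs was not tested, and in bulk tissue fewer cells of a type and less RNA per cell cannot be told apart.

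The sequences around 5 start sites show how closely these RNAs can sit to their partner genes. The windows run from 250 bases before to 50 bases after a start site, as RefSeq gives them for GRCm38.p6, and 73 of the 134 genes matched one by symbol, chromosome and strand. In the first 3, the spans of both genes overlap, and capitals mark the bases that lie inside both, as GENCODE annotates them. Zfas1 (chr2:167062684-167062983, + strand) starts 81 bases from the start of Znfx1, which runs the other way through the whole window. Gm10687 (chr9:44134436-44134735, - strand) starts 16 bases from Mcam. The Hand2os1 window (chr8:57320810-57321109, - strand) belongs to a RefSeq start 3374 bases from the GENCODE one, and it holds the first 127 bases of Hand2.
Zfas1: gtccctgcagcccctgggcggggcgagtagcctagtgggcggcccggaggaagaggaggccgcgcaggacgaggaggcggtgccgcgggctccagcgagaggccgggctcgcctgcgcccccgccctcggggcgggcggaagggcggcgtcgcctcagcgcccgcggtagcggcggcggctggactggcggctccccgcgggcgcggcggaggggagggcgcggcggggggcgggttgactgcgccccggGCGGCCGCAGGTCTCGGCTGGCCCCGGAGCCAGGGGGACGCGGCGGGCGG
Gm10687: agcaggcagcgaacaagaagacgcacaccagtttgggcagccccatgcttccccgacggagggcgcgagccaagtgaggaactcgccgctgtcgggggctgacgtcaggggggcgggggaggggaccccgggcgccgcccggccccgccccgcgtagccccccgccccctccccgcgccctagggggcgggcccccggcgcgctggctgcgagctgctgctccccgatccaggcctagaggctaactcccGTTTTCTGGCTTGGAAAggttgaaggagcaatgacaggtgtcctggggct
Hand2os1: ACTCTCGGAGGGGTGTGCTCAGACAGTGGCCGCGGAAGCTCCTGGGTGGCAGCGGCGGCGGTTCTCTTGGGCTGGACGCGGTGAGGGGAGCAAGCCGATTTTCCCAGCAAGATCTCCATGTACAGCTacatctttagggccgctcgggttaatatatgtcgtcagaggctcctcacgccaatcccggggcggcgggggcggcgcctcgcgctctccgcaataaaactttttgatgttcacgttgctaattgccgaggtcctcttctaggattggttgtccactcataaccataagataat

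In the other 2 windows the genes start back to back without overlapping, and capitals mark the bases of the neighbour, which is read from the other strand. Gm16062 (chr11:59809830-59810129, + strand) starts 64 bases from Flcn, the folliculin gene. Gm4285 (chr14:75844915-75845214, - strand) starts 129 bases from Tpt1, which encodes the translationally controlled tumour protein.
Gm16062: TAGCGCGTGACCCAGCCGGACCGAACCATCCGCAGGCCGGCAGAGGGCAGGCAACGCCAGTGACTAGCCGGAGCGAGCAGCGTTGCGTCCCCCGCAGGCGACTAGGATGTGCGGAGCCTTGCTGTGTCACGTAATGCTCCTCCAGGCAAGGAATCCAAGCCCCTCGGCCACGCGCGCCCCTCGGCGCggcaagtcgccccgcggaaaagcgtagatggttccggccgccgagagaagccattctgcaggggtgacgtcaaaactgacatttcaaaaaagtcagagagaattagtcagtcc
Gm4285: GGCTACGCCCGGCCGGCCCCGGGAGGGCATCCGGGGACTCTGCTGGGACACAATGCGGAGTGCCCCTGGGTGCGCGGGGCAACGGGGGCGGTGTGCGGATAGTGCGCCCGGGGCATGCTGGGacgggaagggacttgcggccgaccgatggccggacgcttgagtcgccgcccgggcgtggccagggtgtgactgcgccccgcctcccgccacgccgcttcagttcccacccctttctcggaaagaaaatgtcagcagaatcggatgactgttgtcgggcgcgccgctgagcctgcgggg

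Base composition was described over the 73 matched windows beside all 32851 RefSeq windows. The antisense genes were chosen by expected count and the windows as a whole were not, so the values below are not matched on expression. CpG dinucleotides reached at least 0.6 of the number that base composition predicts in 40 antisense windows, or 54.8%, against 35.8% of all windows. The median GC content was 57.3% in the antisense windows and 52.7% in all windows. The letters TATAAA, read on both strands, occurred in 8.22% of antisense windows and 13.6% of all windows. The letters TGACGTCA, the full cAMP response element, occurred in 3 antisense windows, those of Gm16062, Gm10687 and 4933417D19Rik, or 4.11%, against 1.79% of all windows. The letters CAAGGTCA, a form of the SF-1 site, occurred in 2, those of Etohd2 and D130020L05Rik, or 2.74%, against 1.56% of all windows. These matches are letters in a window and not binding sites, and each gene in the last 2 counts was named after its window had been read.

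The antisense RNAs together made up a small share of the library. They held 32025 expected counts in replicate 2, or 0.0935% of the counts over genes (Wilson 95% interval 0.0925 to 0.0946), and 32847 in replicate 1, or 0.0814% (0.0805 to 0.0823). These intervals cover counting error only. Their TPM, a measure of transcript abundance corrected for length and depth, summed to 627 in replicate 2 and 540 in replicate 1. A pair of genes held 27.7% of the antisense counts in replicate 2 and 29.5% in replicate 1, and 5 genes held 42.5% and 42.7%.

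Most of these RNAs were rare. The median level was 2.21 TPM in replicate 2 and 1.80 TPM in replicate 1, or 2.00 ± 0.286 TPM (SD, n = 2). Of the 134 genes, 10 averaged at least 10 TPM, 99 lay from 1 to under 10 TPM and 25 lay under 1 TPM. Among genes past the same count threshold, the median was 10.5 TPM for 12859 protein-coding genes, 2.24 TPM for 167 lincRNA genes and 0.795 TPM for 212 genes of class TEC, loci in the annotation that await experimental support.

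A530020G20Rik (ENSMUSG00000097124.2, chr3:121531619-121536206, + strand, mm10) was the highest, with 74.7 TPM in replicate 2 and 56.6 TPM in replicate 1. It rested on 4831 and 4491 expected counts, and its main transcript has 4 exons. Its start site lies 785 bases inside Slc44a3, a gene of the choline transporter-like family, which had 9.56 TPM in replicate 2 and 9.73 TPM in replicate 1. The antisense RNA was thus the higher of the pair in both libraries.

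The next 3 had means within 1 SD of each other. Tbx3os1 (ENSMUSG00000087516.7, chr5:119570130-119671365, - strand) had 39.1 TPM in replicate 2 and 27.3 TPM in replicate 1, a mean of 33.2 ± 8.34 TPM (SD, n = 2). Its partner by shared bases is Gm16064, and its start lies 696 bases from that of Tbx3, a T-box transcription factor, which had 133 TPM in replicate 2 and 103 TPM in replicate 1. The 4930426D05Rik gene, which starts inside Klhl14 on chromosome 18, had 39.0 TPM in replicate 2 and 26.3 TPM in replicate 1, a mean of 32.7 ± 9.02 TPM, against 24.4 and 19.2 TPM for Klhl14.

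Tug1 (ENSMUSG00000056579.18, chr11:3639785-3649673, - strand), a conserved noncoding RNA needed for male fertility in mice, was the fourth. It had 31.2 TPM in replicate 2 and 33.7 TPM in replicate 1, a mean of 32.5 ± 1.76 TPM, the smallest spread of the 4. Its start lies 482 bases from that of Morc2a, a chromatin ATPase of gene silencing, which stood at 17.3 and 16.9 TPM. Tug1 shares 6.66% of its exon bases with another gene on its own strand, so part of its count is an estimate.

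Hand2os1 (ENSMUSG00000100510.7, chr8:57281117-57324233, - strand), also called upperhand and studied in mouse heart development, had 25.6 TPM in replicate 2 and 18.2 TPM in replicate 1, a mean of 21.9 ± 5.23 TPM. Its GENCODE start lies inside Hand2, a transcription factor of the sympathetic and chromaffin lineage, whereas the RefSeq start of the window above lies before the first base of Hand2. Hand2 had 13.7 TPM in replicate 2 and 16.1 TPM in replicate 1. The 2 genes lay on opposite sides of 0 between the libraries, with a log2 ratio of replicate 2 over replicate 1 of 0.42 for Hand2os1 and -0.33 for Hand2.

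Gm47547 (chr14:41053653-41061614, + strand), whose whole span lies inside Dydc2, had 23.2 TPM in replicate 2 and 18.5 TPM in replicate 1. Its mean of 20.9 ± 3.28 TPM did not differ from that of Hand2os1 beyond their spread. Dydc2 itself had 0.420 TPM in replicate 2 and 0.320 TPM in replicate 1. No exon base of Gm47547 lies opposite an exon.

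Zfas1 (ENSMUSG00000074578.13, chr2:167062934-167065862, + strand), a host of box C/D snoRNAs known from the mouse mammary gland, had 12.4 TPM in replicate 2 and 15.98 TPM in replicate 1. Its partner Znfx1, a helicase of antiviral defence, had 21.5 TPM in replicate 2 and 22.2 TPM in replicate 1. The 2310009A05Rik gene, head to head with Pigb of the GPI anchor pathway, had 15.5 and 17.9 TPM, against 6.96 and 5.49 TPM for Pigb.

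Gm16062, which overlaps the end of Cops3, a subunit of the COP9 signalosome, and starts beside Flcn, had 10.0 TPM in replicate 2 and 16.1 TPM in replicate 1. Flcn, with 18.3 and 19.2 TPM, had a log2 ratio of replicate 2 over replicate 1 of -0.13, against -0.77 for Gm16062. Rab10os, tail to tail with the GTPase gene Rab10, had 11.5 and 9.70 TPM, and Gm15417, head to head with Zbtb7b, had 10.3 and 9.59 TPM.

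**Figure D1:**
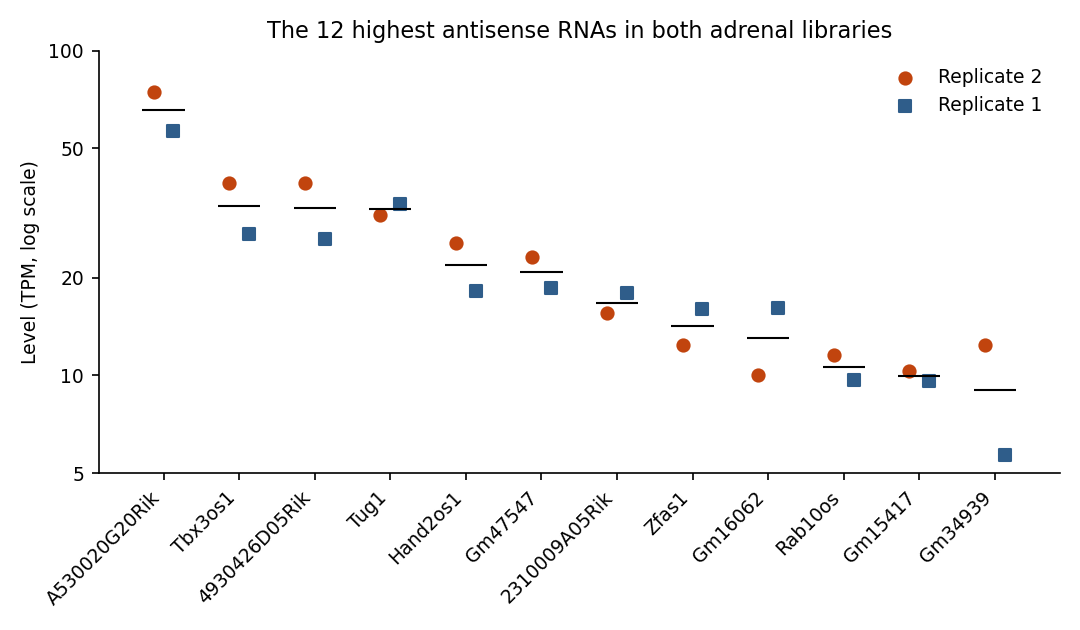
Levels of the 12 highest antisense RNAs in TPM on a log axis, with replicate 2 as circles, replicate 1 as squares and the mean of both as a line. A530020G20Rik stands alone at the top with 74.7 and 56.6 TPM, and Gm34939 shows the widest gap, with 12.4 and 5.67 TPM.

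The list of antisense RNAs with a described role or host function held 7 of the 134, among them Tug1, Hand2os1 and Zfas1, which are among the 12 highest. The other 4 were lower. Zeb2os, whose human counterpart is known to alter splicing of the ZEB2 leader, had 2.60 TPM in replicate 2 and 2.55 TPM in replicate 1, about 5.28% and 5.47% of the TPM of Zeb2. Hoxb5os, whose span lies around Hoxb6, had 5.18 and 4.46 TPM. Snhg14, the long RNA that silences the paternal copy of Ube3a in neurons, had 2.02 and 1.44 TPM, against 61.9 and 59.1 TPM for Ube3a.

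Dnm3os (ENSMUSG00000078190.7, chr1:162217623-162225550, + strand), which lies inside Dnm3 and carries 2 miRNA genes, had 0.490 TPM in replicate 2 and 0.430 TPM in replicate 1, from 109 counts in each. F630028O10Rik on chromosome X, the only gene of the 134 without a partner by the rule used here, carries the gene of miR-223, a miRNA of myeloid cells, and had 93 and 85 counts. The mature miRNAs that these hosts carry are given next, from RefSeq in GRCm38.p6, with the seed (bases 2 to 8) in capitals. The 6 seeds all differ.
miR-199a-5p: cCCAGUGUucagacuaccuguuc
miR-199a-3p: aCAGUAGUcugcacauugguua
miR-214-5p: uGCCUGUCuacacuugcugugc
miR-214-3p: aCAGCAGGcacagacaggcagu
miR-223-5p: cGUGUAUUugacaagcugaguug
miR-223-3p: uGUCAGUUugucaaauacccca

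The small RNAs inside these hosts could not be read from the gene tables. In all, 11 antisense genes hold 223 small RNA genes on their own strand, of which 216 are snoRNA genes and 208 lie in Snhg14. A count was listed for 2 of the 223. The alignment-based tables subtract 100 bases from each length, and 218 of the 223 are no longer than that, so a 0 there says nothing of the small RNA itself. The miRNA precursors of the 6 sequences above are 110 bases long and so not among the 218. They were listed at 0 in both libraries.

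Whether counting used strand is not stated, and it decides what an antisense count means, so the counts themselves were examined. Where reads can belong to more than 1 gene, the alignment-based tables split them and give counts that are not whole. Counts were whole in both libraries, to within 0.005, for 84.6% of 8891 genes whose exons overlap no other gene. Of 386 genes with at least 10% of their exon bases shared with a gene on the same strand, 12.2% had whole counts. Of 1351 genes with at least 10% of their exon bases opposite exons of the other strand and none shared on their own, 89.0% did.

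Among the antisense RNAs, counts were whole for 122 of 134. They were whole for 61 of the 63 with at least 10% of exon bases opposite and none shared on the same strand, and for all 8 with at least 50% opposite. Reads were thus not split between opposite strands in these tables, as they were between genes of the same strand. The index-based tables gave the same order, with whole counts in 57.4% of genes with opposite overlap, 50.9% of genes without overlap and 16.1% of genes with overlap on the same strand. The share of reads that carry the wrong strand was not measured. Gm44732, which lies inside Cdkn1c, an imprinted inhibitor of the cell cycle, has 98.4% of its exon bases opposite exons. It held 66 counts in replicate 2 and 44 in replicate 1, or 0.394% and 0.255% of the counts of Cdkn1c.

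**Figure D2:**
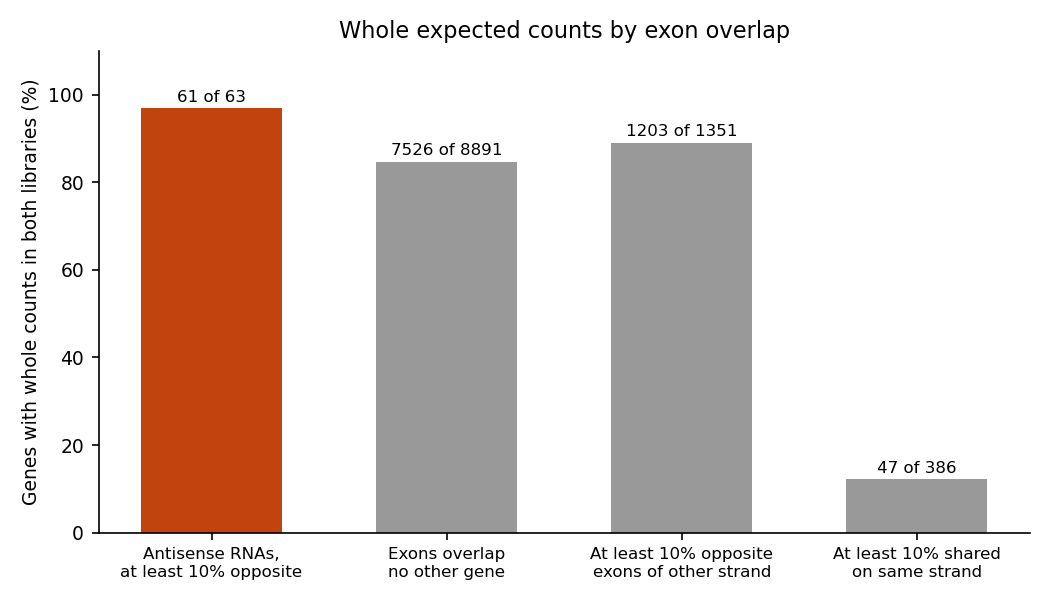
Percent of genes with whole expected counts in both libraries, by how their exons overlap other genes, with the number of genes above each bar. Antisense RNAs and other genes that lie opposite exons stand near the genes without overlap, and genes that share bases on the same strand stand at 12.2%.

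The antisense genes differ in where they lie. The partner was taken as the gene of the other strand that shares most bases, or else the nearest start within 1 kb, and 133 of the 134 have one, in 125 cases protein-coding. Start sites overlap head to head in 49, ends overlap tail to tail in 34, 30 lie inside the partner, 13 lie around it and 7 diverge from it without overlap. For 70 genes a protein-coding gene starts on the other strand within 1 kb. The main transcript has 1 exon in 33 genes, 2 exons in 47 and at least 3 in 54. A share of at least 10% of exon bases lies opposite exons in 72 genes, and 23 genes have no such base.

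Partners were mostly expressed, and mostly above the antisense RNA. Of protein-coding partners, 82.4% reached 1 TPM in both libraries, against 54.5% of all 22028 protein-coding genes. The partners belong to antisense genes chosen by expected count and the 22028 genes were not chosen, so these shares are not matched on expression. The antisense RNA was above its partner in both libraries in 38 pairs and below it in 90. It was at least 10-fold below in 35 and at least 2-fold above in 30. The median log2 ratio of antisense RNA over partner, on TPM + 0.1, was -1.74 in replicate 2 and -1.70 in replicate 1, a mean of -1.72 ± 0.03 (SD, n = 2). Across the 133 pairs the levels had a Pearson correlation of 0.01, a description over genes that share both libraries. The count threshold cut off low antisense levels and not low partner levels, which can weaken such a correlation.

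Position went with different medians. The 30 genes inside their partner had a median log2 ratio to it of -2.76 and the 49 head-to-head genes one of -2.54, while the 34 tail-to-tail genes had -1.22. The 13 genes around their partner had a median of 1.89, where the median partner stood at 0.60 TPM. No test was made of these differences. With protein-coding partners alone, a setting added after the data had been seen, the median over all pairs was -2.04.

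The largest gaps above a partner came from partners that were nearly silent. This follows in part from the ranking, since the antisense RNAs had to pass the count threshold and their partners did not. Tbx3os1 was furthest above, with 39.1 TPM in replicate 2 and 27.3 TPM in replicate 1, against 0.420 and 0.070 TPM for the lincRNA gene Gm16064, with which it shares most bases. Gm20400 had 5.84 TPM in replicate 2 and 9.65 TPM in replicate 1 inside Slco1a6, an organic anion transporter listed at 0 in both. Sp3os had 4.31 and 6.67 TPM opposite Gm11084, also listed at 0, and Zbtb11os1 had 5.23 and 4.79 TPM opposite Gm28037, again listed at 0. Zbtb11os1 starts 734 bases from Zbtb11, which was above it, with 7.74 TPM in replicate 2 and 7.42 TPM in replicate 1. Tmem147os had 4.49 and 3.78 TPM, against 0 and 0.060 TPM for Gapdhs, the sperm form of the glycolytic enzyme. It starts 39 bases from Tmem147, which had 64.7 TPM in replicate 2 and 69.9 TPM in replicate 1. The symbol Tmem147os is carried by 2 gene identifiers, and the values are those of ENSMUSG00000097320.8.

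The 4 antisense RNAs furthest below a partner lay beside more abundant mRNAs. Gm4285, shown above back to back with Tpt1, had 1.70 TPM in replicate 2 and 2.53 TPM in replicate 1, against 899 and 885 TPM for Tpt1. Gm20632 had 2.04 and 0.860 TPM, against 161 and 178 TPM for the histone gene Hist2h2aa2. Gm44732 had 3.73 and 2.11 TPM, against 364 and 318 TPM for Cdkn1c. The 1700018L02Rik gene had 0.620 and 0.730 TPM, against 84.3 and 82.6 TPM for Ak3, a mitochondrial adenylate kinase.

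Few partners were on the lists of adrenal, clock and early response genes used here. A830082K12Rik, head to head with Nr2f1, an orphan nuclear receptor, had 2.96 TPM in replicate 2 and 2.68 TPM in replicate 1, against 5.71 and 7.86 TPM for Nr2f1. Gm6225, on chromosome 18 and head to head with Crem, which encodes modulators of the cAMP response, had 0.630 and 0.460 TPM, against 25.9 and 35.7 TPM for Crem. Hand2os1 was the one with a partner on the chromaffin list, and none of the 134 had a partner on the steroidogenesis or clock lists. The share of all genes on these lists is not given here, so the low numbers are no result about the antisense RNAs. Junos, noticed after its values had been seen, starts 688 bases from Jun, an early response transcription factor, although its partner by shared bases is another gene. It had 3.65 TPM in replicate 2 and 2.27 TPM in replicate 1, against 37.3 and 43.7 TPM for Jun.

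**Figure D3:**
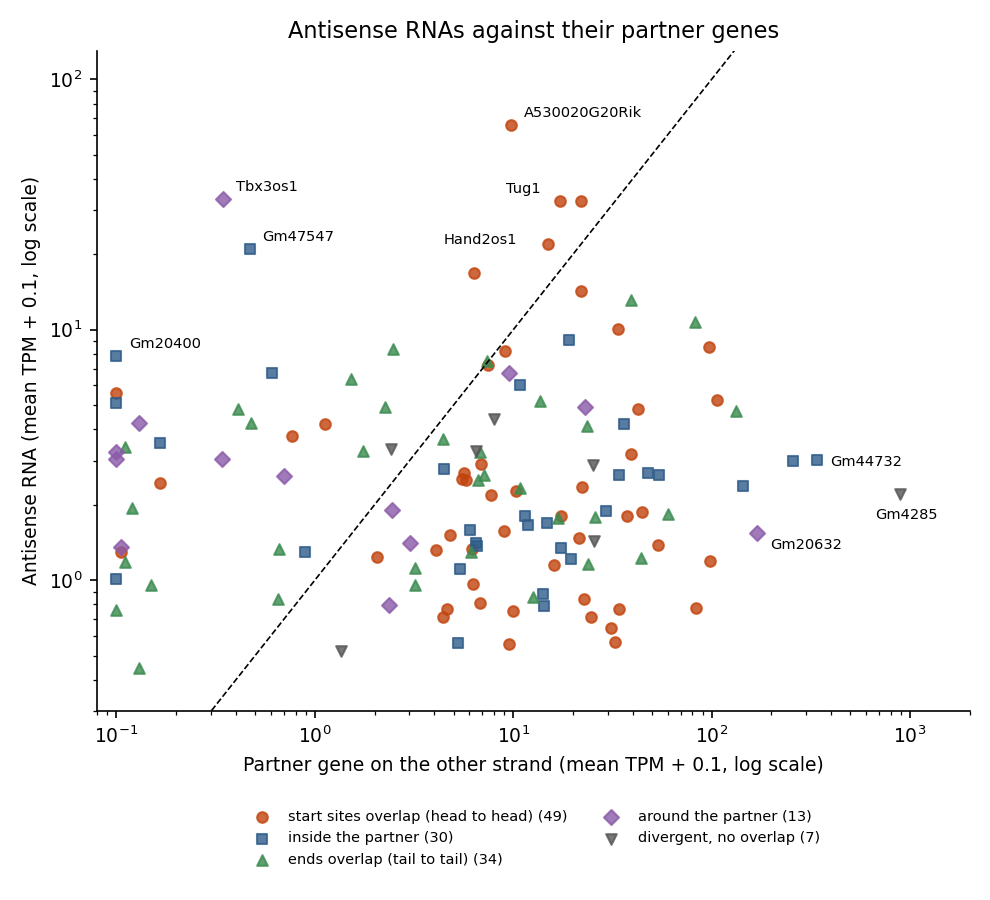
Mean level of each of 133 antisense RNAs against that of its partner gene, both in TPM + 0.1 on log axes, with marker shapes for their arrangement and a dashed line at equal levels. Most points lie below the line, and those at the left edge have partners listed at or near 0.

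The libraries were then compared by the log2 ratio of replicate 2 over replicate 1, on expected counts scaled by TMM with 0.5 added. The antisense RNAs had a median of 0.09, with 79 of 134 above 0, while all 14061 genes past the same threshold had a median of -0.03 with 45.5% above 0. Protein-coding genes had a median of -0.03, lincRNA genes of 0.20 and TEC genes of 0.48. On TPM as deposited the median of all genes moved up by 0.10, and the antisense median was then 0.15 beside 0.08 for all genes. The difference between the medians was from 0.08 to 0.16 under every scaling and threshold tried.

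Most antisense RNAs had low counts, whereas 11142 of the 14061 genes had a mean count of at least 200 and a median of -0.04. At matched counts the gap was smaller. From 50 to under 100 counts the median was 0.13 for 59 antisense RNAs and 0.07 for 1416 genes, with 54.2% of antisense RNAs and 55.6% of all genes above 0. From 100 to under 200 counts the medians were 0.09 for 50 antisense RNAs and 0.05 for 1503 genes, with 64.0% and 55.9% above 0. At 200 counts or more the medians were 0.03 for 25 antisense RNAs and -0.04 for 11142 genes, with 60.0% and 42.8% above 0. The SD was 0.45 for antisense RNAs and 0.64 for all genes in the lower range, and 0.39 and 0.60 in the next. At 200 counts or more the order was the reverse, with an SD of 0.43 for antisense RNAs and 0.33 for all genes. The medians of the gene classes above were not matched on count.

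**Figure D4:**
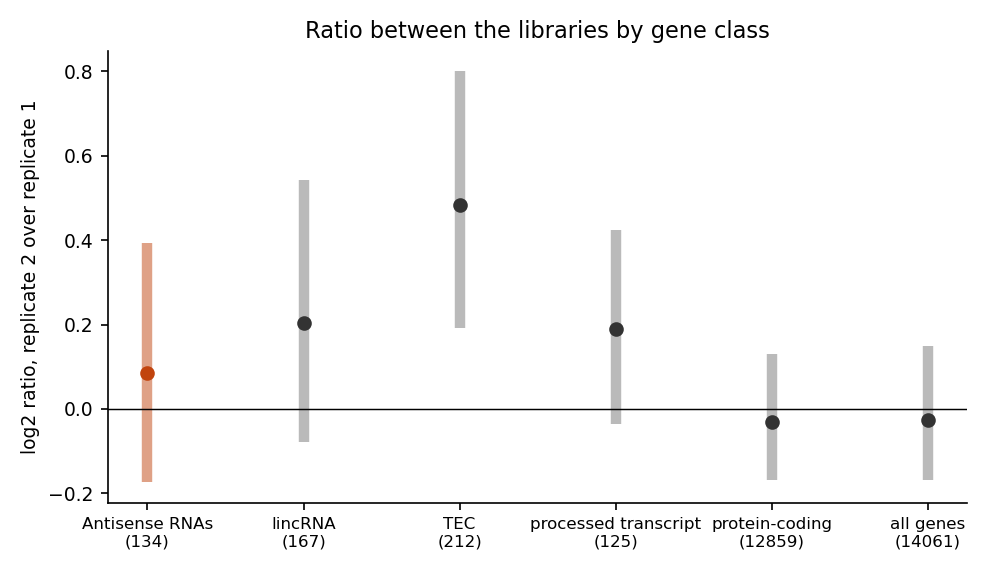
Median log2 ratio of replicate 2 over replicate 1 by gene class (points) with the range from the 25th to the 75th percentile of genes (bars) and the number of genes below each name. The antisense RNAs have a median of 0.09, between the protein-coding genes at -0.03 and the TEC genes at 0.48, and 18 of them are also of the processed transcript class.

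At least a 2-fold higher value in replicate 2 was found for 3 antisense RNAs, or 2.24%, where 1.05% of all genes passed that fold. At least a 2-fold lower value was found for 0, where 0.989% of all genes passed. These shares are not matched on count. From 50 to under 100 counts, 0 of 59 antisense RNAs and 75 of 1416 genes were at least 2-fold higher. From 100 to under 200 counts 2 of 50 and 40 of 1503 were, and at 200 counts or more 1 of 25 and 32 of 11142. These folds have no replicate check.

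Gm49417 (ENSMUSG00000115186.1, chr14:70205324-70255287, + strand) had 261 counts and 5.43 TPM in replicate 2, against 102 counts and 1.71 TPM in replicate 1. After scaling it was 2.82-fold higher in replicate 2 (exact 95% interval of counting error 2.24 to 3.59). Its partner Ppp3cc, a catalytic subunit of calcineurin, had a log2 ratio of 0.36, against 1.495 for Gm49417.

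Gm34939 (ENSMUSG00000116250.1, chr15:99702664-99703976, - strand), inside Smarcd1, a subunit of the SWI/SNF remodelling complexes, had 262 counts and 12.4 TPM in replicate 2, against 141 counts and 5.67 TPM in replicate 1. The fold was 2.05 (1.67 to 2.54), and the log2 ratio was 1.04 for Gm34939 and 0.30 for Smarcd1. Gm20632, around the histone gene Hist2h2aa2, had 157 counts in replicate 2 and 77.7 in replicate 1, a fold of 2.22 (1.69 to 2.96). Its counts are not whole and it stands in a repeated histone locus, so its value is uncertain. Hist2h2aa2 had a log2 ratio of -0.23.

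In the other direction the lowest ratios stayed within 2-fold. Gm20400 had 109 counts in replicate 2 and 212 in replicate 1, a log2 ratio of -0.81, and Gm16062 had 222 and 420 counts, a log2 ratio of -0.77. Among the highest RNAs, A530020G20Rik had a log2 ratio of 0.25, Tbx3os1 of 0.35, 4930426D05Rik of 0.49, Tug1 of -0.23 and Zfas1 of -0.33. The biological coefficient of variation between the libraries, the spread beyond counting noise, was 0.152 over 16966 genes.

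**Figure D5:**
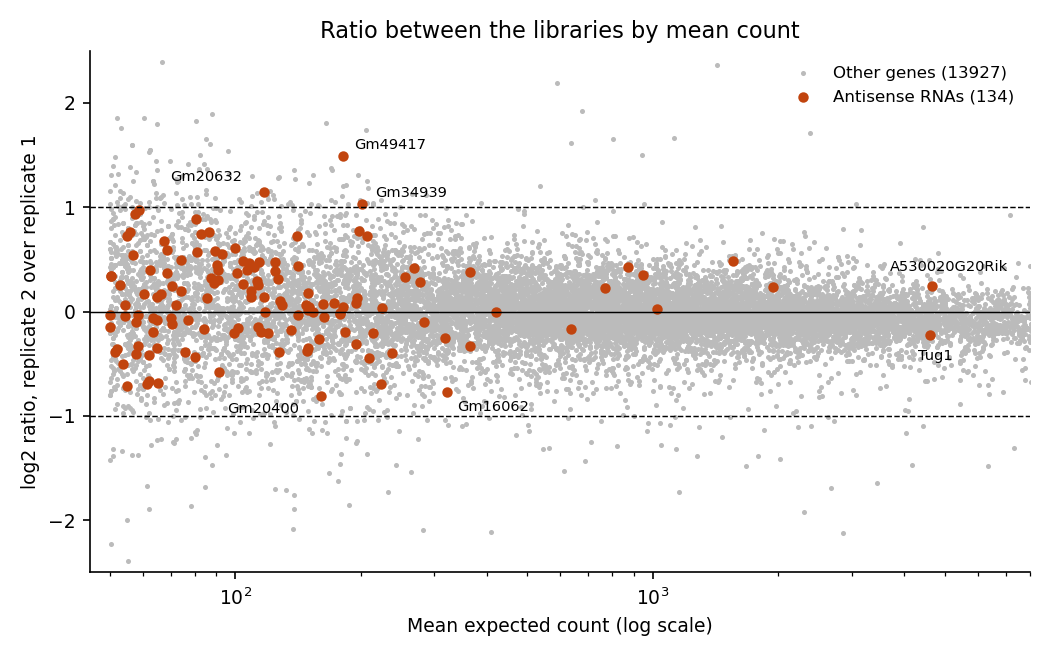
Log2 ratio of replicate 2 over replicate 1 against the mean expected count on a log axis, with 134 antisense RNAs in colour over 13927 other genes in grey and dashed lines at 2-fold. Most antisense RNAs lie between the dashed lines, and Gm49417, Gm20632 and Gm34939 lie above the upper line (542 other genes lie outside the axes).

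The ratios of antisense RNAs and of their partners between the libraries were set side by side. For 107 pairs with both genes at a mean count of at least 50, the ratio of the antisense RNA was above that of its partner in 60, and the median difference was 0.07. The correlation of both ratios over these pairs was -0.05 (Pearson) and -0.01 (Spearman), a description over genes of the same 2 libraries. In 8 of the 107 pairs the ratios were more than 1 apart on the log2 scale. No such count was made for other pairs of genes, so this number is no result about the antisense RNAs. By position, the median ratio between the libraries was 0.45 for the 7 divergent genes, 0.31 for the 13 around their partner, 0.18 for the 34 tail-to-tail genes, 0.04 for the 30 inside and -0.01 for the 49 head-to-head genes. The range from the 25th to the 75th percentile was -0.18 to 0.63 for the divergent genes and -0.20 to 0.26 for the head-to-head genes. These medians were not tested or matched on count.

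Genes of RNA decay were all within 2-fold between the libraries, as were most of the 14061 genes past the count threshold. Of the 14061, 1.05% were at least 2-fold higher in replicate 2 and 0.989% at least 2-fold lower. The list of 18 genes, mostly of the nuclear exosome and its cofactors such as the helicase gene Mtrex, also holds Xrn1 and Dcp2, which act on mRNA in the cytoplasm, and it had a median log2 ratio of 0.06. Exosc10, the nuclear exosome nuclease, had 15.7 TPM in replicate 2 and 16.4 TPM in replicate 1. Pabpn1, which with Zfc3h1 directs nuclear polyadenylated RNA to decay, had 83.3 and 54.0 TPM.

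Levels from the alignment were close to those from the transcript index. Of the 134 antisense RNAs, 130 were within 2-fold between the tables in both libraries. The gene table was at least 2-fold above the index table in both libraries for 1, Rab26os, or 0.746%, where 2.23% of all genes were. It was at least 2-fold below for 1, Gm20400, or 0.746%, where 0.505% of all genes were. The median log2 ratio of gene table over index table was 0.10 in replicate 2 and 0.08 in replicate 1 for antisense RNAs, and 0.20 in each for all genes.

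Rab26os, a gene of 497 bases that holds the snoRNA gene Snord60, had 6.97 TPM in replicate 2 and 6.32 TPM in replicate 1 in the gene table. In the index table it had 3.12 and 0.730 TPM, so its ratio between the libraries depends on the table. Gm20400 had 5.84 and 9.65 TPM in the gene table and 14.2 and 20.4 TPM in the index table, and its direction was the same in both. Snhg14 had 2.02 and 1.44 TPM in the gene table and 3.39 and 2.42 TPM in the index table.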

How the data were processed

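The deposited files are, for each library, a table per gene and a table per transcript from alignments, and a second table per transcript from an index, in mm10 with GENCODE M21, per the file headers. The aligner and counter were not given in the sources used here. Without normalization by the authors, expected counts were deposited as estimated. The TPM and FPKM columns are the authors' values, and the deposited percent column gives the share of a gene that each transcript holds. Estimated counts and TPM of the deposited index-based tables were summed per gene. The annotation held every one of the 55536 identifiers. Rows of tRNAs (26248), spike-ins and phiX174 were left out.

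TMM factors and an intercept-only coefficient of variation came from edgeR 4.0.16 (R 4.3.3) on rounded counts, and alternative size factors from DESeq2 1.42.0. Ratios used a pseudocount of 0.5 and partner levels TPM + 0.1. The ratio and overlap steps were tested on simulated data. Everything else ran in Python 3.11.15 with pandas 2.3.3, numpy 2.4.6, matplotlib 3.10.9 and scipy 1.17.1.

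Named genes are the 12 highest, those 2-fold apart, those with a known role or a listed partner, the 6 furthest above and 4 furthest below their partner, the 5 furthest apart between tables in each direction, and those beside the threshold. Junos, F630028O10Rik and genes named for a motif were chosen after their values were seen. Members and lists were chosen with earlier results of these data known. Alternatives were other thresholds, scalings, pseudocounts, tables, partners, overlap limits and leaving out each library.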

Additional observations from a re-analysis of the deposited data

How the results depend on the processing

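No paired analysis was possible because both libraries belong to 1 group. The number of antisense RNAs, 134, was 267 at a mean count of at least 20, 75 at 100 and 576 with at least 3 counts in both libraries, and 131 to 133 with 1 library left out. Their median level of 2.00 TPM was 1.15 TPM at a count of 20 and 2.90 TPM at 100, which follow from which genes pass. With 1 library left out it was 1.80 to 2.21 TPM, the medians of the 134 genes in each library alone. Where 3 RNAs were 2-fold apart between the libraries, 5 were by CPM, 5 by TPM as deposited and 5 in the index-based table (4 higher and 1 lower in replicate 2). Of all genes, 1.44% were higher and 0.683% lower by CPM, 1.40% and 0.683% by TPM, and 0.932% and 1.26% in the index-based table. At a count of 20, 18 of 267 RNAs were 2-fold apart (14 higher and 4 lower), beside 2.56% of 16078 genes higher and 1.54% lower. Of 62 RNAs with under 10% of exon bases opposite exons, 1 was higher, beside 1.05% of all genes. These shares were not matched on count. The median log2 ratio between the libraries ranged from 0.06 to 0.18. The median log2 ratio to the partner, -1.72 over 133 pairs, was -1.37 on TPM + 1 and -1.74 to -1.70 with 1 library left out. Other settings changed the pairs as well. The median was -2.71 over 73 pairs with the partner taken by start site and -1.51 over 61 with under 10% of exon bases opposite. It was -2.04 over 125 pairs with protein-coding partners, a setting chosen after seeing the data. The cause was not tested. Where 2 RNAs differed between the tables, 1 did at a count of 100 and 2 to 4 did with 1 library left out. Of 238 alternative ratios of named RNAs, 230 moved by less than 0.2 on the log2 scale and 8 by more, such as Gm10687, at -0.39 and at 0.29 in the index-based table, and the 3 RNAs called 2-fold apart stayed so under all 7 other scalings, pseudocounts and tables. Depth limits the low genes: 3 counts correspond to 0.0874 CPM in replicate 2 and 0.0742 CPM in replicate 1.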
